A study of Mus musculus with 68 samples.

Results

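The comparison set the POLE4-KO#1 clone (3 libraries) against POLE4-KO#2 and POLE4-KO#3 (3 libraries each), 9 of the 68 RNA-seq samples of the study, to describe how clones that carry the same knockout differ from each other. All 3 clones are Pole4KO lines derived from E14JU, a male mouse embryonic stem cell (ESC) line of the 129/Ola strain, and were grown untreated in serum with LIF. The 3 wild-type libraries of the same experiment (WT#1, the unedited E14JU genotype) were set beside them. Each library was made from rRNA-depleted total RNA, and the 3 libraries of a line were described as biological replicates by the study. Each line is a single clone, so a property of the clone and an effect of the knockout in that clone cannot be told apart. Because the samples are bulk RNA, fewer cells of a type and less RNA per cell cannot be told apart either.

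POLE4 and its partner POLE3 are histone-fold proteins that form the small subunits of DNA polymerase epsilon, the enzyme that copies the leading strand. They bind histones H3 and H4 and help to pass parental histones onto the leading strand behind the fork, so their loss shifts old histones and their marks to the lagging strand. Serum-grown ESCs are a mixed population, in which most cells hold a naive or formative pluripotent state and a few pass into a transient state that expresses genes and retroviruses of the 2-cell embryo.

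A gene was called different at an adjusted p below 0.01 (edgeR quasi-likelihood test, Benjamini-Hochberg) with an absolute log2 difference above 0.58. Levels are CPM, counts scaled to a common library size after TMM normalisation, and a log2 difference given with its SE is KO#1 over the mean of KO#2 and KO#3 unless another pair is named. The split into KO#1 against the other clones was selected on the measured counts of these same libraries, so the calls describe the size of a difference against the spread between libraries and are no independent test. The difference between KO#2 and KO#3 comes from the same libraries and is a description as well. The libraries held 18369196 to 26975105 counts in the POLE4-KO clones and 20477221 to 26098796 in WT#1. Pou5f1, the central pluripotency factor, stood at 922, 890 and 835 CPM in KO#1, at 899, 685 and 674 CPM in KO#2 and at 697, 731 and 688 CPM in KO#3, so the 3 clones all carried the ESC marker at a high level.

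Pole4 itself (ENSMUSG00000030042, GRCm38 chr6:82618992-82705365) was low in every knockout library. It had 2.98, 2.88 and 3.79 CPM in KO#1, 6.998, 6.38 and 8.24 CPM in KO#2 and 3.31, 2.99 and 4.91 CPM in KO#3, against 56.5, 62.1 and 60.7 CPM in WT#1. KO#1 and KO#3 overlapped, and the 3 KO#2 libraries lay above both. The log2 difference over WT#1 was -4.20 in KO#1, -3.05 in KO#2 and -3.97 in KO#3, and KO#2 over KO#3 was called at 0.96. The other subunits Pole (0.27 ± 0.04), Pole2 (0.54 ± 0.07) and Pole3 (0.19 ± 0.06) were not called between KO#1 and the mean of the other clones.

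Promoter sequences are shown first for genes of 2 groups that were lowest in KO#1, the Zscan4 and Usp17l genes of the 2-cell-like state and the X-linked Xlr3 genes. Each is the stretch of 250 bases upstream of the annotated start (RefSeq, GRCm38.p6), 5′ to 3′ on the strand of the gene, with the motif TATAAA in capitals. Zscan4c lies at chr7:11005495-11005744 (plus strand), Zscan4d at chr7:11166149-11166398 (minus), Zscan4f at chr7:11397665-11397914 (plus), Usp17lb at chr7:104842584-104842833 (minus), Xlr3a at chrX:73097096-73097345 (minus) and Xlr3b at chrX:73191929-73192178 (plus).
Zscan4c: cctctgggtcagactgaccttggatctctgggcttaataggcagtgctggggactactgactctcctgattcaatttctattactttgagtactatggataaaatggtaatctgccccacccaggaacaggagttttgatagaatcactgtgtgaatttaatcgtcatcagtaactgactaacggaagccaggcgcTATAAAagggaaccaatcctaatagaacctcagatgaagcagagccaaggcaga
Zscan4d: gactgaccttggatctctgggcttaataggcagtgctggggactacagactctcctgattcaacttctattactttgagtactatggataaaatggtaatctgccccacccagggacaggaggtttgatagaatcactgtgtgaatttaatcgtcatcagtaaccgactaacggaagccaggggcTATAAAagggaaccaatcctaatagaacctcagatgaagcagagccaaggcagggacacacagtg
Zscan4f: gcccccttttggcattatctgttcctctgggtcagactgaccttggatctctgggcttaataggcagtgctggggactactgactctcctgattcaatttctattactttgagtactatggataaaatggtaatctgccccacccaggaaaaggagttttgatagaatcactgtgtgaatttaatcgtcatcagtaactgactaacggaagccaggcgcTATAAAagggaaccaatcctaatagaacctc
Usp17lb: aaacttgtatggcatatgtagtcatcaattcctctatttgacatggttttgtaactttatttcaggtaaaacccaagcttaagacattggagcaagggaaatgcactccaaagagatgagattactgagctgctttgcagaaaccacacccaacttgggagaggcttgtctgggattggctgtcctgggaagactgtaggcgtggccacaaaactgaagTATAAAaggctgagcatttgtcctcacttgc
Xlr3a: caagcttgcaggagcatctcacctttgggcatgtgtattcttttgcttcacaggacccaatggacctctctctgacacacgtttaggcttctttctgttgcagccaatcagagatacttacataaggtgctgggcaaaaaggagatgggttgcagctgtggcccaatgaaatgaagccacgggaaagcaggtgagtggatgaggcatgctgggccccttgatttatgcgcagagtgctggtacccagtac
Xlr3b: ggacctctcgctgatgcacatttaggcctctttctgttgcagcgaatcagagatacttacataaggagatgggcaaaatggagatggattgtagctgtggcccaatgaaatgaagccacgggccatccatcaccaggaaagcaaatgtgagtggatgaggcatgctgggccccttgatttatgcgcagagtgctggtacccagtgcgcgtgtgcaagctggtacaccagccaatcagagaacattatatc
The 3 Zscan4 promoters were near copies of each other: Zscan4c and Zscan4d were identical at 232 of 239 aligned positions (97.1%), and Zscan4c and Zscan4f at 226 of 227 (99.6%). The motif began 54 bases before the start in Zscan4c, 65 in Zscan4d and 31 in both Zscan4f and Usp17lb. Neither Xlr3 promoter held it, and Xlr3a and Xlr3b were identical at 176 of 206 aligned positions (85.4%). Of 11199 tested genes with a promoter in the table, 882 (7.88%) held TATAAA on either strand. It was present in 80 of 613 promoters (13.1%) of genes lower in KO#1 against both clones, in 21 of 194 (10.8%) of genes higher against both, in 7 of 15 (46.7%) of the 2-cell-like list and in 0 of 12 (0%) of the trophectoderm list, the second lowest in KO#1. The median number of CpG dinucleotides in the window was 17 over all tested genes, 11 for the genes lower in KO#1, 16 for the genes higher in KO#1, 2 for the 2-cell-like list and 14.5 for the trophectoderm list. The 2-cell-like list holds near copies such as the Zscan4 promoters, so its promoters are not independent and its share and CpG median rest on few distinct sequences. These matches describe letters in a window and were not tested as binding sites.

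More genes were low in KO#1 than high. Of 16622 tested genes, 642 (3.86%) were called higher and 1690 (10.2%) lower in KO#1 than the mean of KO#2 and KO#3. These shares are the background for every count of list members called against that mean. Against each clone taken singly, KO#1 had 761 genes higher (4.58%) and 1176 lower (7.07%) than KO#2, and 780 higher (4.69%) and 2220 lower (13.4%) than KO#3. The other pair also differed, with 497 genes (2.99%) higher and 1587 (9.55%) lower in KO#2 than in KO#3. A set of 291 genes (1.75%) was higher in KO#1 in every one of its comparisons and 902 (5.43%) were lower. The lower set was weakly expressed, with a median of 3.17 CPM, and the higher set had a median of 12.6 CPM, beside 11.1 CPM over all tested genes.

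The genes highest in KO#1 were a homeobox gene, a keratin and a group of signalling and surface proteins. Nkx6-3, a homeobox transcription factor, had 18.6, 15.6 and 20.3 CPM in KO#1, 0.952, 0.714 and 0.729 CPM in KO#2, 0.662, 0.736 and 0.5999 CPM in KO#3 and 1.97, 2.08 and 2.08 CPM in WT#1. KO#1 stood apart from all other libraries (4.64 ± 0.12), and KO#2 and KO#3 lay below WT#1. Krt17, a type I keratin of stressed and basal epithelia, had 51.4, 56.3 and 56.5 CPM in KO#1, 5.43, 5.88 and 5.54 CPM in KO#2, 7.82, 7.72 and 7.27 CPM in KO#3 and 8.17, 8.76 and 6.52 CPM in WT#1. Only the KO#1 libraries were high (3.07 ± 0.06), and the other 9 libraries lay below 9 CPM. Fgf17, a ligand of the FGF family, had 63.2, 55.4 and 65.6 CPM in KO#1, 14.9, 12.3 and 14.6 CPM in KO#2, 12.2, 10.99 and 10.3 CPM in KO#3 and 26.9, 17.7 and 19.7 CPM in WT#1. The log2 difference was 2.31 ± 0.06, with no overlap between KO#1 and any other line. Bmp4, a BMP ligand of the early embryo, was also highest in KO#1 and next in WT#1, with 60.2, 67.6 and 66.2 CPM in KO#1, 16.5, 18.9 and 19.6 CPM in KO#2, 22.1, 19.5 and 21.7 CPM in KO#3 and 24.0, 26.2 and 23.6 CPM in WT#1 (1.72 ± 0.06). Serpinb6c, a serine protease inhibitor (2.62 ± 0.08), Msln, the surface glycoprotein mesothelin (1.94 ± 0.12), and Themis, known from T-cell development (1.88 ± 0.18), were also above every library of the other clones. Miip was an exception in its direction over wild type: it had 6.13, 8.21 and 8.36 CPM in KO#1, 0.714, 0.630 and 0.558 CPM in KO#2, 2.17, 1.66 and 2.25 CPM in KO#3 and 7.24, 5.30 and 5.07 CPM in WT#1. KO#1 was near WT#1 for this gene, and KO#2 and KO#3 were low. Among the genes with the largest increases, Atp8a2 (4.62 ± 0.14), a phospholipid flippase, and Fgf17 lie on chromosome 14, which is described separately.

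**Figure D1:**
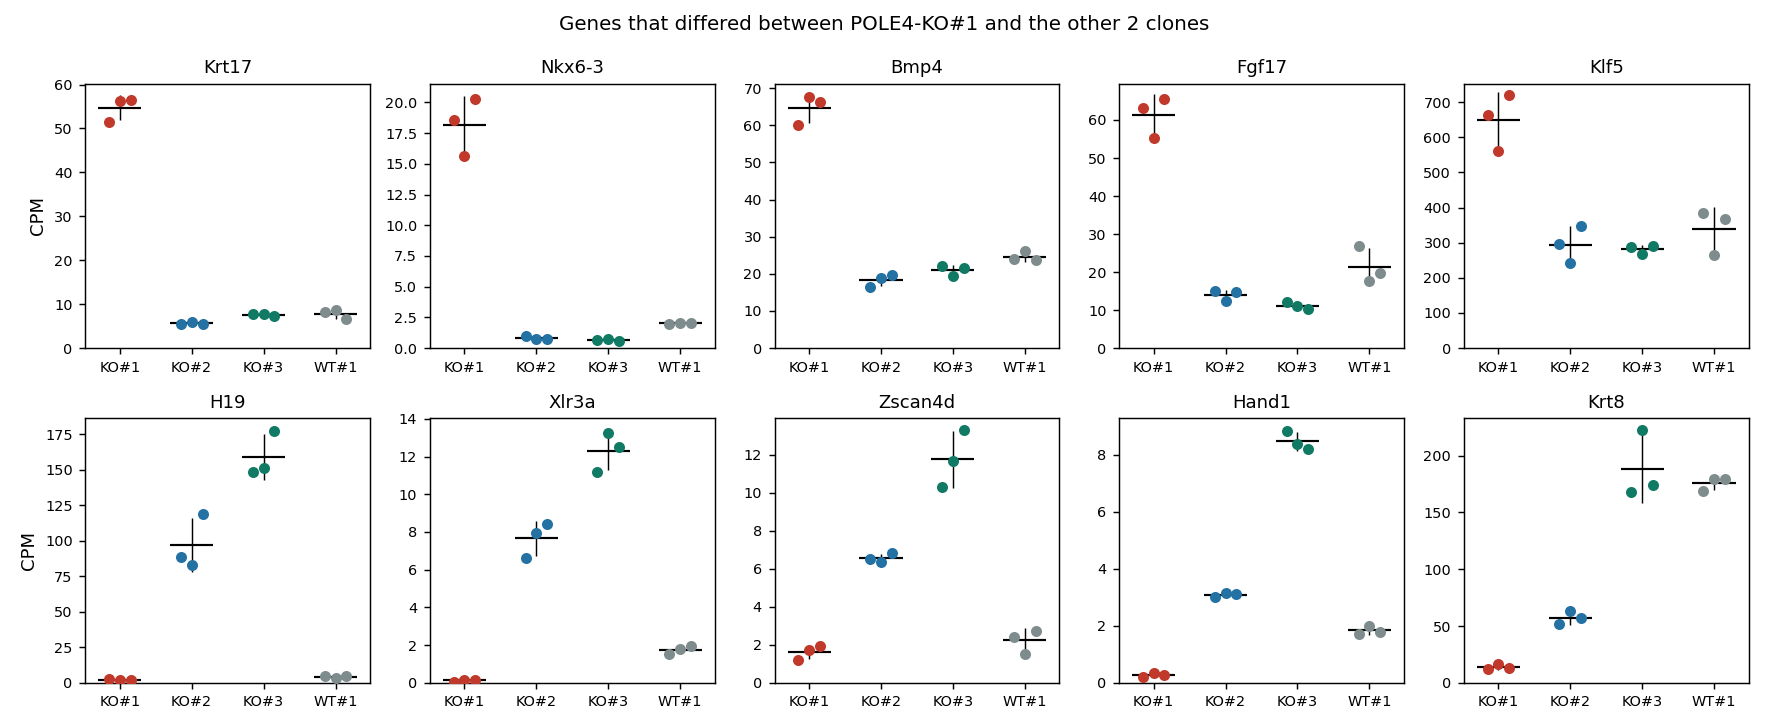
CPM in each library (points) with the mean (horizontal line) and SD (vertical line) of the 3 libraries of each line, for 5 genes high and 5 genes low in KO#1. Krt17 and Nkx6-3 were high in the KO#1 libraries alone, and H19 was high in KO#2 and KO#3 while KO#1 and WT#1 stayed below 5 CPM.

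Several of the genes lowest in KO#1 were almost silent there. These genes passed the expression filter only through KO#2 or KO#3 and were picked for their large decreases. Their direction between the clones was largely fixed by this selection. Pramef17, a member of the PRAME family of germline genes, had no count in any KO#1 library, 4.24, 2.81 and 1.72 CPM in KO#2, 5.17, 3.77 and 5.44 CPM in KO#3 and 0.837, 1.34 and 1.59 CPM in WT#1. Against a floor of 3 counts over its 3 libraries together (0.0448 CPM), KO#1 was at least 64.2-fold lower than KO#2 and at least 107-fold lower than KO#3. Tnc, the extracellular matrix protein tenascin C, had 3 counts in KO#1 in all. Its ratio to KO#2 and KO#3 pooled, as given for the genes that follow, was 0.0169 (95% counting interval 0.00347 to 0.0498), with 1.33, 1.34 and 1.63 CPM in KO#2, 3.61, 5.24 and 3.04 CPM in KO#3 and 2.86, 3.69 and 3.57 CPM in WT#1. Bhmt, which remethylates homocysteine with betaine, had 2 counts in KO#1 (ratio 0.0132, 0.00159 to 0.048), and KO#2 was its highest clone at 5.43, 1.97 and 3.56 CPM. WT#1 held 0.837, 0.231 and 0.290 CPM of Bhmt, and KO#1 over WT#1 was not called. Crxos, a homeobox gene of the early embryo, had 3 counts in KO#1 (ratio 0.0225, 0.00462 to 0.0666). Intervals of this kind cover counting error only.

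The X-linked lymphocyte-regulated (Xlr) cluster was low in KO#1 and high in the other clones. Xlr3a, whose relative Xlr3b is imprinted in mouse brain, had 0.0533, 0.177 and 0.156 CPM in KO#1, 6.62, 7.94 and 8.41 CPM in KO#2, 11.2, 13.2 and 12.5 CPM in KO#3 and 1.53, 1.81 and 1.93 CPM in WT#1. KO#1 was below WT#1 and the other clones above it (-6.13 ± 0.21). Xlr5b and Xlr5c had no count in KO#1. Xlr5b was at least 18.7-fold lower there than in KO#2 and 62.4-fold lower than in KO#3, and Xlr5c at least 10.8-fold and 50.4-fold lower in the same order. Xlr4a had 1 count (ratio 0.01, 0.000252 to 0.0564) and Xlr5a 2 counts (ratio 0.0154, 0.00186 to 0.0563). WT#1 was near 0 as well, with means of 0.114 CPM for Xlr4a, 0.0614 for Xlr5a, 0.0128 for Xlr5b and 0.104 for Xlr5c. Over WT#1 none of these was called in KO#1, and all were called higher in KO#2 and KO#3. Members near 0 in KO#1 passed the expression filter only through KO#2 or KO#3, so their direction was largely fixed by it. The copies of Xlr, Pramef, Zscan4, Usp17l, Tdpoz and Trim43 are near-identical, so reads may be split or lost between members, and the value of a single copy is uncertain.

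Of the 15 genes with the largest decreases, H19 was the most highly expressed. H19 is a maternally expressed long noncoding RNA whose imprinting control region also regulates its paternally expressed neighbour Igf2, a growth factor. H19 had 2.61, 1.73 and 2.27 CPM in KO#1, 88.7, 83.1 and 119 CPM in KO#2, 149, 151 and 177 CPM in KO#3 and 4.53, 3.69 and 4.59 CPM in WT#1. KO#1 lay just below WT#1, and both other clones lay far above it (-5.83 ± 0.10). The row of Mir675, a microRNA that lies within H19, moved with it (-6.00 ± 0.28). Igf2 had 4.74, 4.26 and 5.82 CPM in KO#1, 12.8, 14.8 and 17.8 CPM in KO#2, 36.5, 41.1 and 40.9 CPM in KO#3 and 22.9, 26.8 and 22.9 CPM in WT#1, so that H19 and Igf2 were both lowest in KO#1 and highest in KO#3 (Igf2 -2.30 ± 0.09). Over the 33 tested imprinted genes, 13 were called lower in KO#1 and 5 higher, with a median of -0.43 beside 0.03 over all genes. Of all genes 10.2% were called lower and 3.86% higher. Plagl1, a zinc finger factor of the imprinted network (-1.82 ± 0.10), Magel2 (-1.40 ± 0.22), Usp29 (-1.39 ± 0.15) and Peg3 (-0.91 ± 0.05) were lower. Grb10, an adaptor that restrains growth factor signalling, was higher, with 158, 141 and 165 CPM in KO#1, 69.9, 59.3 and 78.0 CPM in KO#2, 41.8, 42.1 and 42.9 CPM in KO#3 and 81.7, 67.8 and 83.0 CPM in WT#1 (1.52 ± 0.05). The genes lower in KO#1 included paternally expressed ones, such as Plagl1, and the maternally expressed H19.

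Of the gene lists, the 2-cell-like list had the lowest median in KO#1 relative to the other clones. Of 25 tested members (30 listed), 24 were called lower in KO#1, beside 10.2% of all genes, and none higher. In 22 the 3 KO#1 libraries lay below all 6 libraries of the other clones, which 1854 of all tested genes (11.2%) also did. Members near 0 in KO#1, such as Tcstv3, Trim43a and Duxf3, passed the expression filter only through KO#2 or KO#3. Such members could hardly come out other than lower, so these counts are partly fixed by the filter. The median log2 difference was -2.41, with -2.27 against KO#2 and -2.57 against KO#3, beside -0.33 for KO#2 over KO#3. The summed level of the list was 25.9 to 30.5 CPM in KO#1, 86.3 to 97.7 CPM in KO#2, 113 to 129 CPM in KO#3 and 32.0 to 32.9 CPM in WT#1. Thus KO#1 lay just under wild type, and KO#2 and KO#3 well above it. Zscan4d, of the Zscan4 cluster that protects telomeres in ESCs, had 1.23, 1.73 and 1.95 CPM in KO#1, 6.52, 6.34 and 6.82 CPM in KO#2, 10.3, 11.7 and 13.3 CPM in KO#3 and 2.41, 1.54 and 2.75 CPM in WT#1 (-2.41 ± 0.13). Its neighbours Zscan4c (-2.15 ± 0.13) and Zscan4f (-2.44 ± 0.14), whose promoters are printed above, differed by similar amounts. Usp17lb, a deubiquitinase gene, had 0.160, 0.0888 and 0.430 CPM in KO#1, 3.76, 3.40 and 2.703 CPM in KO#2, 4.45, 5.01 and 5.81 CPM in KO#3 and 0.985, 0.769 and 1.16 CPM in WT#1 (-4.08 ± 0.30). Here KO#1 lay below WT#1 as well. Duxf3, the Dux gene that switches on this programme, held few counts, with 0, 0.0444 and 0.117 CPM in KO#1, 0.857, 0.462 and 0.558 CPM in KO#2, 0.241, 0.368 and 0.450 CPM in KO#3 and 0.0492, 0.115 and 0 CPM in WT#1. Its call rested on KO#1 replicate 1, which held no count: without that library the log2 difference was -2.39 and not called, against -2.89 ± 0.61 with all 9 libraries. Arg2 and Tmem92 were lower in KO#1 too, and Ddit4l was the member not called.

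MERVL, the endogenous retrovirus that marks the same state, followed these genes. Its internal sequence MERVL-int had 216, 166 and 232 CPM in KO#1, 666, 664 and 729 CPM in KO#2, 642, 589 and 722 CPM in KO#3 and 255, 225 and 295 CPM in WT#1 (-1.71 ± 0.06). Its long terminal repeat MT2_Mm had 68.7, 57.9 and 69.5 CPM in KO#1, 198, 187 and 201 CPM in KO#2, 183, 167 and 191 CPM in KO#3 and 79.7, 73.5 and 88.4 CPM in WT#1 (-1.52 ± 0.05). For both, KO#2 and KO#3 overlapped each other and stood clear of KO#1 and WT#1.

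Repeats lay slightly lower in KO#1, mainly against KO#2: the median over 858 tested subfamilies was -0.24, with -0.40 against KO#2 and -0.10 against KO#3. Of these, 4 (0.466%) were called higher and 51 (5.94%) lower in KO#1, beside 10.2% of genes called lower. The number lower was sensitive to single libraries: it was 31 without KO#1 replicate 2 and 68 without KO#2 replicate 1. Against KO#2 104 subfamilies (12.1%) were lower and 2 (0.233%) higher, and against KO#3 31 (3.61%) were lower and 5 (0.583%) higher. The count of 104 was 48 without KO#1 replicate 2, 54 without KO#2 replicate 2 and 154 without KO#2 replicate 1. In every KO#1 comparison 25 (2.91%) were lower and 2 (0.233%) higher. KO#2 over KO#3 went the other way, with 28 (3.26%) higher and 3 (0.35%) lower. The count of 28 was 18 without KO#2 replicate 2 and 55 without KO#2 replicate 1, and that of 3 was 1 without KO#2 replicate 2, KO#2 replicate 3 or KO#3 replicate 1 and 0 without KO#3 replicate 3. Repeat counts made up 3.775 to 4.711% of all counts in KO#1, 5.341 to 6.018% in KO#2, 4.172 to 4.876% in KO#3 and 3.581 to 4.155% in WT#1, so KO#1 and KO#3 overlapped in this share. Within KO#1 the share was lowest in replicate 2. Calls fell mainly among long terminal repeat families: 29 of 255 ERVK, 7 of 84 ERV1 and 7 of 71 ERVL subfamilies were lower, against 1 of 119 L1 subfamilies.

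Single subfamilies differed far more than the median. RLTR45-int, an ERVK element, had 21.6, 20.4 and 21.1 CPM in KO#1, 154, 141 and 148 CPM in KO#2, 104, 70.9 and 99.5 CPM in KO#3 and 26.7, 20.03 and 26.6 CPM in WT#1 (-2.45 ± 0.07). KO#1 was at the wild-type level and the other clones above it. IAPEy-int was nearly silent in KO#1, at 0.0533, 0.133 and 0.0391 CPM, with 1.38, 2.02 and 1.03 CPM in KO#2, 2.10, 3.22 and 2.59 CPM in KO#3 and 0.295, 0.384 and 0.241 CPM in WT#1 (-4.63 ± 0.38). ETnERV3-int separated KO#2 instead, at 41.7, 48.1 and 57.4 CPM, from KO#1 at 9.11, 7.19 and 10.98 CPM and KO#3 at 13.8, 10.3 and 15.3 CPM. The major satellite GSAT_MM had 34.6, 29.2 and 45.5 CPM in KO#1, 29.6, 50.5 and 75.0 CPM in KO#2, 5.05, 4.83 and 4.54 CPM in KO#3 and 3.64, 4.77 and 3.57 CPM in WT#1. KO#1 and KO#2 overlapped and were high, and KO#3 stood at the wild-type level, so its call against the mean of the other clones (1.25 ± 0.15) came from KO#3 alone. RLTR4_MM-int, of a murine leukaemia virus-like family, was higher in KO#1 than in every other library, at 130, 98.7 and 147 CPM, with 74.1, 64.7 and 76.7 CPM in KO#2, 69.2, 56.2 and 73.6 CPM in KO#3 and 69.8, 53.01 and 62.9 CPM in WT#1 (0.85 ± 0.05).

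**Figure D2:**
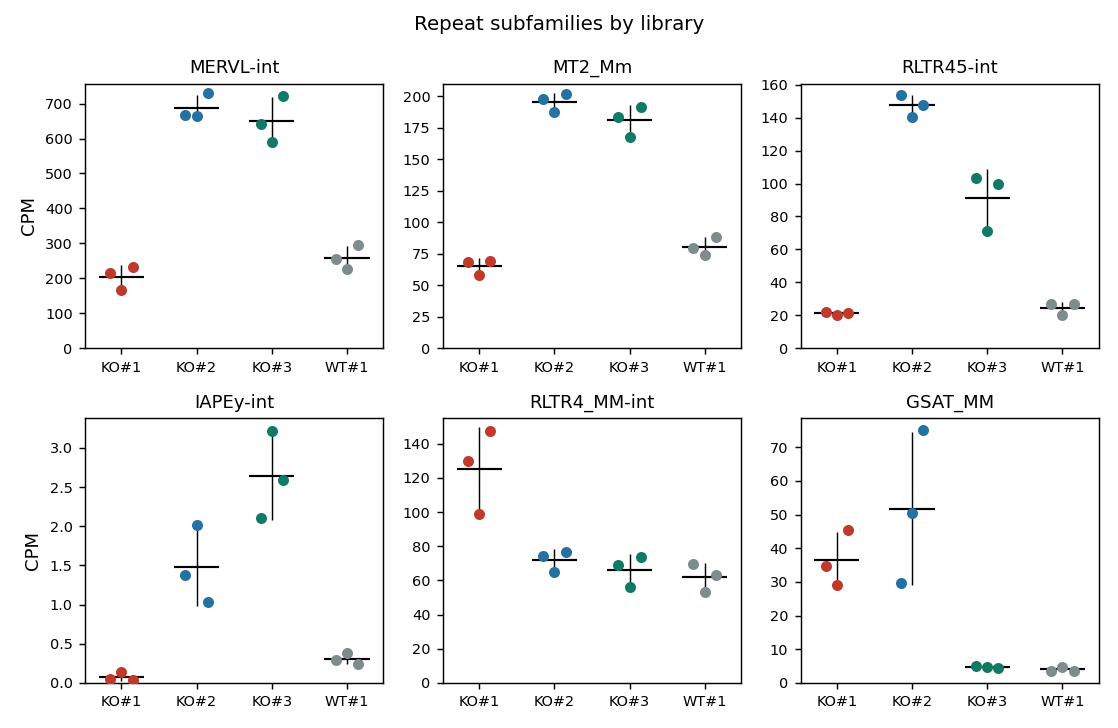
CPM of 6 repeat subfamilies in each library (points), with the mean and SD of the 3 libraries of each line. MERVL-int, MT2_Mm, RLTR45-int and IAPEy-int were low in KO#1 and WT#1 and high in KO#2 and KO#3, RLTR4_MM-int was highest in KO#1, and GSAT_MM was high in KO#1 and KO#2.

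Trophectoderm genes, which mark the placental lineage, were next. Of 16 tested members, 13 were called lower in KO#1, beside 10.2% of all genes, and none higher. The median was -2.09 (-1.68 against KO#2, -2.42 against KO#3 and -0.55 for KO#2 over KO#3). Plac1 and Hand1 passed the expression filter only through KO#2 and KO#3, so their direction was largely fixed by it. The summed level was 145 to 156 CPM in KO#1, 228 to 251 CPM in KO#2, 446 to 547 CPM in KO#3 and 426 to 442 CPM in WT#1. Elf5, a defining marker, was too low to be tested. Krt8, a simple epithelial keratin, had 12.1, 16.4 and 12.7 CPM in KO#1, 51.5, 62.8 and 56.8 CPM in KO#2, 168, 222 and 174 CPM in KO#3 and 169, 179 and 179 CPM in WT#1 (-2.92 ± 0.06). KO#3 overlapped WT#1, KO#2 lay between, and no line overlapped KO#1. Its partner Krt18 differed by -2.92 ± 0.07. Hand1, a transcription factor of trophoblast giant cells and heart, had 0.213, 0.355 and 0.273 CPM in KO#1, 3.00, 3.15 and 3.13 CPM in KO#2, 8.84, 8.37 and 8.21 CPM in KO#3 and 1.72, 2.00 and 1.79 CPM in WT#1 (-4.14 ± 0.21). Gata3, a trophectoderm regulator, had 1.28, 1.29 and 1.68 CPM in KO#1, 10.1, 9.33 and 10.5 CPM in KO#2, 5.71, 5.88 and 7.54 CPM in KO#3 and 2.66, 2.00 and 2.17 CPM in WT#1 (-2.49 ± 0.13), so for this gene KO#2 was the highest. Cdx2, the lineage-defining factor, was low in KO#1 alone, at 0.586, 0.621 and 0.547 CPM, with 3.05, 2.77 and 3.52 CPM in KO#2, 4.15, 3.26 and 3.71 CPM in KO#3 and 4.33, 3.31 and 4.92 CPM in WT#1 (-2.52 ± 0.20). Plac1, a placental gene, had no count in KO#1 and was at least 16.4-fold lower there than in KO#2 and 19.9-fold lower than in KO#3.

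Other lineage genes were low in KO#1 with exceptions. Of 19 tested primitive endoderm genes, 12 were lower and 2 higher (median -1.23), beside 10.2% of all genes lower and 3.86% higher. The basement membrane collagen Col4a1 had 18.5, 14.2 and 16.7 CPM in KO#1, 77.6, 66.2 and 61.0 CPM in KO#2, 93.3, 107 and 83.7 CPM in KO#3 and 46.4, 45.2 and 45.6 CPM in WT#1 (-2.28 ± 0.09). Dab2, an endocytic adaptor of this lineage (-1.63 ± 0.11), and the receptor Pdgfra (-1.80 ± 0.24) were lower, and Sox7 on chromosome 14 was higher (1.54 ± 0.13). Lama1 on chromosome 17 was also higher (0.70 ± 0.07), called against KO#3 and not against KO#2, and stood at 1.22 over WT#1. The summed level of the list was 1060 to 1358 CPM in KO#1, 1478 to 1630 CPM in KO#2, 1393 to 1450 CPM in KO#3 and 1098 to 1306 CPM in WT#1. By this sum KO#1 overlapped WT#1. The defining factor Gata6 stood at or below 1.76 CPM in every library of the clones, and Sox17, Afp and Ttr were too low to be tested. Gata6, Hnf4a, Srgn and Bmp2, all called lower, passed the expression filter only with the help of KO#2 or KO#3. Their direction was partly fixed by it. Of 13 tested primitive streak genes, 7 were lower and 3 higher (median -1.12). Over WT#1 the median was -1.33 in KO#1, -1.26 in KO#2 and -0.12 in KO#3, so KO#1 shared the low median with KO#2. The summed level was 249 to 329 CPM in KO#1, 131 to 166 CPM in KO#2, 242 to 273 CPM in KO#3 and 257 to 327 CPM in WT#1. By this sum KO#2 was the low clone. T (Brachyury), the streak and mesoderm factor, had 0.426, 0.3995 and 0.352 CPM in KO#1, 4.28, 7.69 and 5.75 CPM in KO#2, 5.23, 5.88 and 5.06 CPM in KO#3 and 17.0, 15.0 and 18.5 CPM in WT#1 (-3.84 ± 0.21). All 3 clones were below WT#1, KO#1 by the most. T and the other lower members Mixl1, Fgf8 and Cdx1 passed the expression filter only through KO#2 or KO#3. Their direction between the clones was largely fixed by it. The Nodal antagonist Lefty2 had 61.4, 93.3 and 63.6 CPM in KO#1, 8.95, 14.9 and 7.17 CPM in KO#2, 64.5, 57.5 and 52.3 CPM in KO#3 and 73.5, 98.6 and 76.1 CPM in WT#1. Its call (1.56 ± 0.10) came from KO#2, the clone in which it was low, as did that of Lefty1 (1.21 ± 0.13). Whether a change in the share of cells of these lineages has a part in these differences was not tested.

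The formative epiblast list, genes that rise when ESCs leave the naive state, had 11 of 20 members lower and 1 higher in KO#1 (median -0.73). Against KO#2 8 were lower and 1 higher (median -0.30), beside 7.07% and 4.58% of all genes. Against KO#3 11 were lower and 2 higher (median -0.72), beside 13.4% and 4.69%. The summed level was 1696 to 1799 CPM in KO#1, 1686 to 1792 CPM in KO#2, 1764 to 1842 CPM in KO#3 and 2005 to 2246 CPM in WT#1, so by this sum the 3 clones overlapped. Pou3f1, a POU factor of this state, had 12.3, 15.4 and 11.9 CPM in KO#1, 23.0, 28.1 and 24.5 CPM in KO#2, 31.4, 33.3 and 30.1 CPM in KO#3 and 37.2, 36.4 and 32.8 CPM in WT#1 (-1.10 ± 0.07). Zic2, a zinc finger factor of primed enhancers, had 14.02, 6.70 and 12.2 CPM in KO#1, 40.5, 23.7 and 46.9 CPM in KO#2, 39.2, 22.5 and 31.5 CPM in KO#3 and 68.2, 30.8 and 52.96 CPM in WT#1 (-1.64 ± 0.09). Replicate 2 was the lowest library of every knockout line for this gene. Dnmt3a, a de novo DNA methyltransferase, had 80.8, 85.5 and 77.7 CPM in KO#1, 123, 113 and 91.0 CPM in KO#2, 237, 214 and 207 CPM in KO#3 and 210, 213 and 191 CPM in WT#1. It was called against KO#3 (-1.42) and not against KO#2 (-0.42), and KO#2 over KO#3 was called as well (-0.998).

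Of 22 naive pluripotency genes, 3 were called higher in KO#1, beside 3.86% of all genes, and 1 lower (median 0.29). The list differed more from KO#3 than from KO#2. Against KO#3 9 were higher and 1 lower (median 0.47), beside 4.69% and 13.4% of all genes. Against KO#2 3 were higher and 1 lower (median 0.09), beside 4.58% and 7.07%. Klf5, a Krüppel-like factor of naive cells on chromosome 14, had 664, 562 and 719 CPM in KO#1, 296, 241 and 347 CPM in KO#2, 287, 267 and 291 CPM in KO#3 and 383, 266 and 368 CPM in WT#1 (1.17 ± 0.05). Gbx2, a homeobox gene downstream of LIF, had 43.6, 53.8 and 45.4 CPM in KO#1, 18.8, 18.5 and 21.9 CPM in KO#2, 18.2, 19.3 and 16.8 CPM in KO#3 and 29.0, 20.9 and 23.7 CPM in WT#1 (1.33 ± 0.07). Nr0b1, a nuclear receptor of naive ESCs, was 0.71 ± 0.05 higher. For these genes KO#1 lay above every other library. Tbx3 went the other way, with 68.2, 40.4 and 56.6 CPM in KO#1, 167, 111 and 145 CPM in KO#2, 142, 104 and 130 CPM in KO#3 and 116, 67.6 and 89.9 CPM in WT#1 (-1.28 ± 0.05). Nanog (0.18 ± 0.04), Pou5f1 (0.28 ± 0.06), Sox2 (0.45 ± 0.05) and Esrrb (0.40 ± 0.05) were not called.

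**Figure D3:**
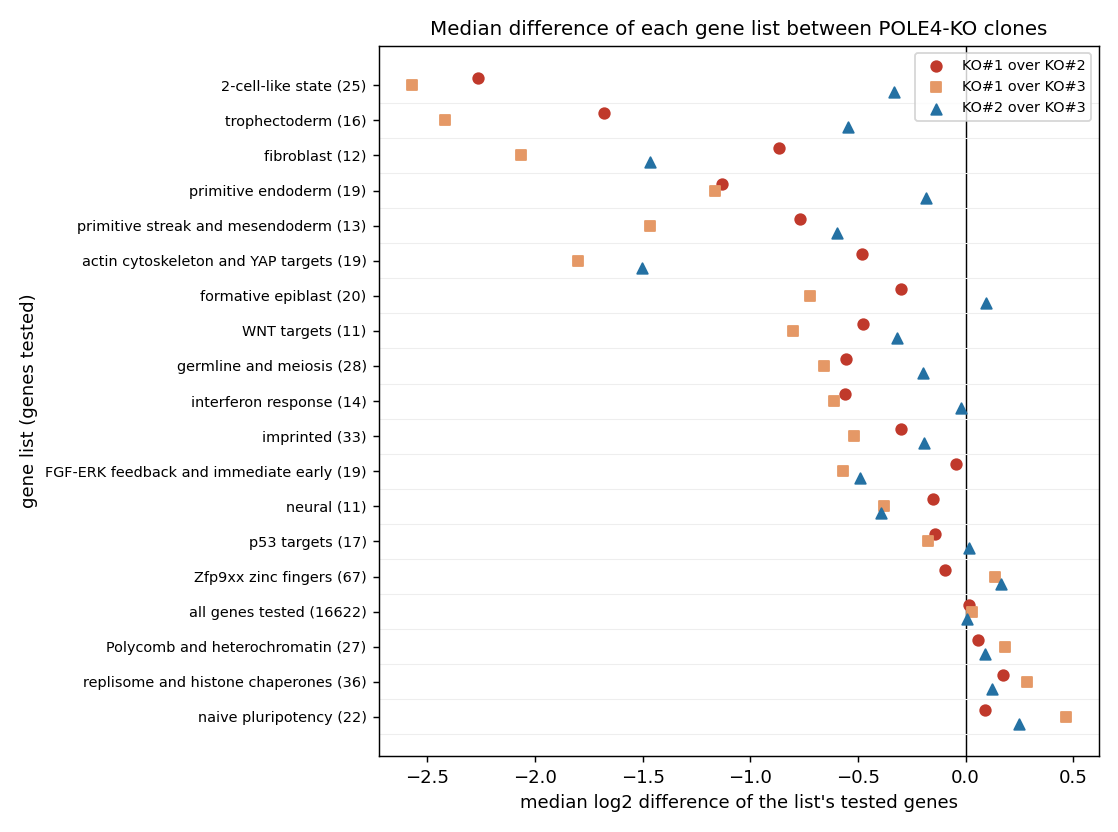
Median log2 difference over the tested genes of each fixed list (number tested in brackets), for KO#1 over KO#2 (circles), KO#1 over KO#3 (squares) and KO#2 over KO#3 (triangles). The 2-cell-like list stood at -2.27 and -2.57 for KO#1 over the other clones and at -0.33 between them, and the actin and YAP list at -0.48 against KO#2, -1.80 against KO#3 and -1.50 for KO#2 over KO#3.

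The actin cytoskeleton list ordered the clones differently, with KO#1 and KO#2 both low and KO#3 at the wild-type level. Of 19 tested actin and YAP target genes, 11 were lower in KO#1 (median -1.08) and none higher. The counts were 6 lower against KO#2 and 17 lower against KO#3, and 16 were lower in KO#2 than in KO#3. Of all genes 7.07%, 13.4% and 9.55% were lower in the same order. The medians over WT#1 were -1.54 in KO#1, -1.09 in KO#2 and 0.06 in KO#3. Acta2, smooth muscle actin, had 1.28, 1.51 and 1.80 CPM in KO#1, 2.19, 5.17 and 3.56 CPM in KO#2, 43.7, 75.5 and 44.7 CPM in KO#3 and 36.7, 51.5 and 38.0 CPM in WT#1 (-3.18 ± 0.16). Thbs1, the matricellular protein thrombospondin 1 and a YAP target, had 8.85, 13.4 and 11.8 CPM in KO#1, 32.1, 50.7 and 45.3 CPM in KO#2, 131, 179 and 140 CPM in KO#3 and 131, 171 and 146 CPM in WT#1 (-2.81 ± 0.07). KO#2 was intermediate for Thbs1 and close to KO#1 for Acta2.

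Of 12 tested fibroblast genes (18 listed), 9 were lower in KO#1 and none higher (median -1.45). Against KO#2 3 were lower (median -0.87) and against KO#3 10 (median -2.06), beside 7.07% and 13.4% of all genes. In KO#2 8 were lower than in KO#3, beside 9.55% of all genes. The medians over WT#1 were -1.71 in KO#1, -1.08 in KO#2 and 0.47 in KO#3. Col1a1, the main collagen of fibroblasts, had 1.01, 0.888 and 1.29 CPM in KO#1, 3.71, 3.11 and 4.21 CPM in KO#2, 62.4, 66.2 and 53.9 CPM in KO#3 and 64.4, 60.1 and 62.7 CPM in WT#1 (-3.78 ± 0.16). The defining fibroblast markers Postn, Dcn, Lum, Fap and Prrx1 were too low to be tested in these libraries. The summed level of the list was 496 to 622 CPM in KO#1, 750 to 808 CPM in KO#2, 708 to 742 CPM in KO#3 and 715 to 858 CPM in WT#1, so that by this sum KO#1 alone lay below WT#1 and KO#2 lay within its range. The part of such cells in the differences was not tested.

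Signalling targets differed gene by gene. Their counts against the mean of the other clones stand beside 3.86% of all genes called higher and 10.2% lower. Of 11 WNT targets, 4 were lower and 1 higher in KO#1 (median -0.64). Axin2, the common feedback target, had 7.09, 9.50 and 8.79 CPM in KO#1, 14.04, 16.1 and 15.8 CPM in KO#2, 28.8, 30.6 and 33.5 CPM in KO#3 and 29.8, 30.9 and 32.2 CPM in WT#1 (-1.36 ± 0.08), whereas Notum, a secreted WNT inhibitor, was 1.36 ± 0.06 higher. Of 19 FGF-ERK feedback and immediate early genes, 5 were lower and 2 higher (median -0.25), and the direction of the calls depended on the clone. Against KO#3 9 were lower and 1 higher (median -0.57), beside 13.4% and 4.69% of all genes. Against KO#2 1 was lower and 4 higher (median -0.05), beside 7.07% and 4.58%. In KO#2 8 were lower than in KO#3 and none higher, beside 9.55% and 2.99%. Dusp4, an ERK phosphatase, had 13.8, 14.6 and 13.8 CPM in KO#1, 22.6, 28.4 and 23.6 CPM in KO#2, 51.8, 55.4 and 47.5 CPM in KO#3 and 64.7, 67.3 and 62.0 CPM in WT#1 (-1.34 ± 0.07), and Fgf15, a further FGF ligand, was 1.18 ± 0.08 higher. Of 14 tested interferon response genes, 4 were lower and none higher, and 2 were lower in every KO#1 comparison, beside 5.43% of all genes. Among these was Oas1a (-2.49 ± 0.16), which makes the activator of RNase L. The summed level of the list was 206 to 213 CPM in KO#1, 198 to 225 CPM in KO#2, 211 to 230 CPM in KO#3 and 206 to 229 CPM in WT#1, so the lines overlapped. Neural genes went both ways, with 4 of 11 higher, such as the cytoskeletal genes Map2 (1.27 ± 0.09) and Ina (1.08 ± 0.05), and 3 lower, such as Nefm (-2.18 ± 0.19). Of 28 germline genes, 11 were lower and 3 higher (median -0.57). Smc1b, the meiotic cohesin subunit, had 4.26, 2.35 and 3.59 CPM in KO#1, 14.7, 11.8 and 16.6 CPM in KO#2, 18.6, 12.8 and 17.6 CPM in KO#3 and 4.97, 4.73 and 6.37 CPM in WT#1 (-2.18 ± 0.11).

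Housekeeping and chromatin lists held few calls. None of 13 mitochondrially encoded genes was called, 1 of 18 cholesterol synthesis genes (Fdft1, on chromosome 14) and 1 of 18 glycolysis rows (Pdk1) were higher, and 2 of 69 replication-dependent histone genes were lower. Among 27 Polycomb and heterochromatin genes only Ehmt2, the H3K9 methyltransferase G9a, was called, with 211, 213 and 196 CPM in KO#1, 139, 130 and 121 CPM in KO#2, 141, 137 and 139 CPM in KO#3 and 186, 166 and 162 CPM in WT#1 (0.62 ± 0.04, close to the limit of 0.58). Among 36 replisome and histone chaperone genes, Supt16, the large FACT subunit (0.73 ± 0.04), and Wdhd1, the replisome adaptor also known as AND-1 (0.70 ± 0.04), were higher. Both lie on chromosome 14 and were called against KO#2 and not against KO#3. The p53 target list (17 genes) and the integrated stress response list (19 genes) had 2 genes lower each and none higher, which is near the 10.2% of all genes called lower. Among them were Cdkn1a, the cell cycle inhibitor p21 (-1.05 ± 0.06), and Asns, asparagine synthetase (-0.90 ± 0.08). The mesoderm and Hox lists held larger shares of calls than the 10.2% of all genes lower. Of 12 tested mesoderm and cardiac genes 4 were lower and 1 higher, and of 5 tested Hox genes (45 listed) 4 were lower (median -1.68). The Hox genes were weakly expressed, with a summed level of 2.5 to 3.1 CPM in KO#1, 7.2 to 8.8 CPM in KO#2, 6.1 to 7.8 CPM in KO#3 and 5.2 to 5.5 CPM in WT#1. Of 67 genes of the Zfp9xx zinc finger group, 8 were lower, near the 10.2% of all genes, and the median was 0.02. Zfp951 differed the most (-2.91 ± 0.09).

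Chromosome 14 differed from the other chromosomes. Of its 555 tested genes, 174 (31.4%) were called higher in KO#1 and 33 lower, with a median of 0.38. The differences changed along the chromosome, and limits at 47 and 70 Mb, set after seeing the values, divided them. In the first 47 Mb (200 genes) the median was 0.05. Between 47 and 70 Mb (220 genes) it was 1.03 against KO#2, 0.15 against KO#3 and -0.88 for KO#2 over KO#3. Set over WT#1, this segment stood at 0.09 in KO#1, -0.93 in KO#2 and -0.00 in KO#3, so over the whole segment it was KO#2 that was low. Between 70 and 120 Mb (114 genes) the median was 0.62 against KO#2, 0.61 against KO#3 and 0.05 for KO#2 over KO#3. Over WT#1 it was 0.68 in KO#1, -0.06 in KO#2 and -0.02 in KO#3, so here KO#1 was high. In that segment 98 of 114 genes lay above 0 in KO#1 over the mean of the other clones. The last 6 Mb (21 genes) had a median of 0.10. Fgf17 and Klf5 lie in the stretch from Stc1 to Gm17082 (GRCm38 chr14:69029238-122159604), of whose 138 tested genes 72 were called higher and 5 lower. Atp8a2 and Sox7 lie in the stretch from Shisa2 to Fbxo16 (chr14:59625308-65323973), with 24 of 41 higher and 2 lower. Over WT#1 this stretch of the middle segment stood at 0.40 in KO#1, -0.88 in KO#2 and 0.01 in KO#3, so here KO#1 was high and KO#2 low. Bmp4, Supt16 and Wdhd1 lie on the same chromosome outside both stretches. Without the genes of chromosome 14, 480 genes were higher and 1649 lower. Copy number was not measured, and its part in these differences was not tested.

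**Figure D4:**
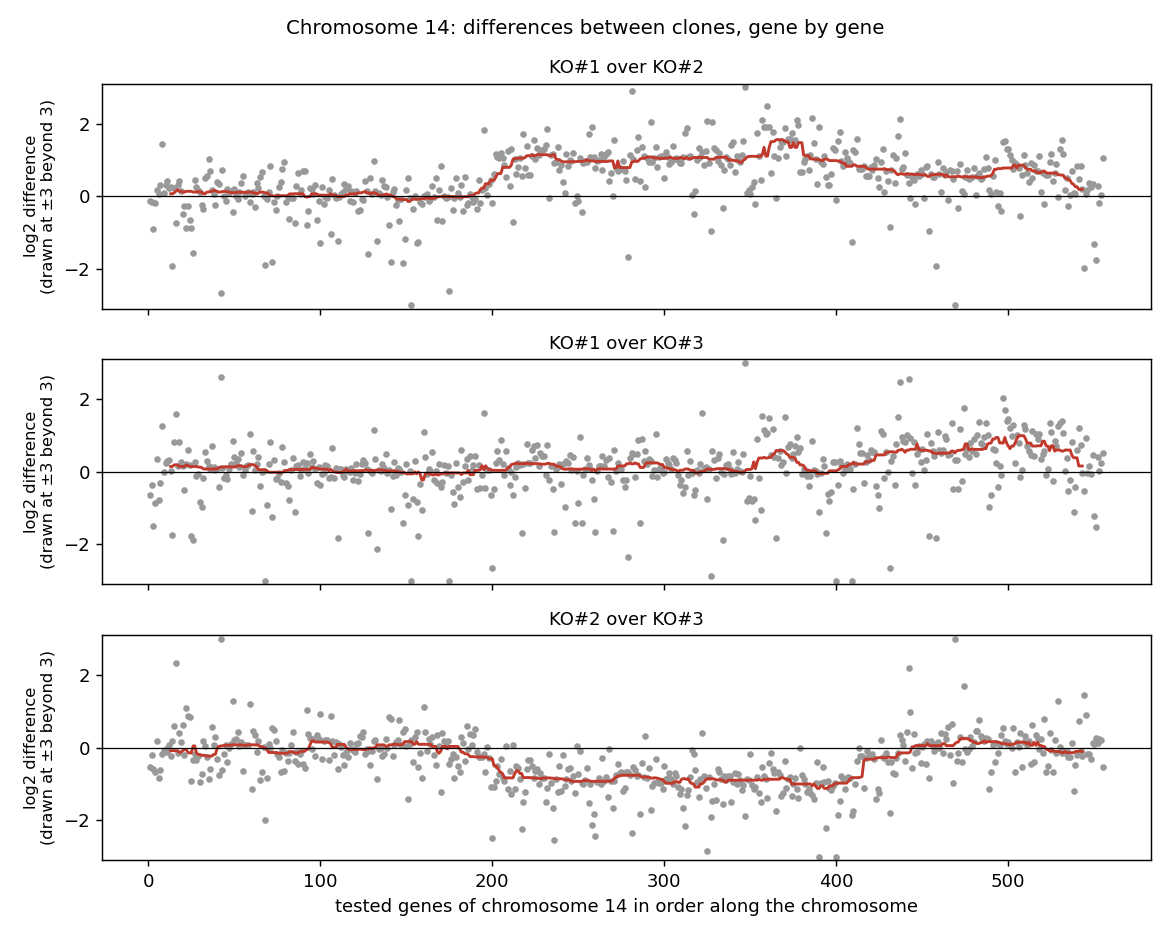
Log2 difference of each tested gene of chromosome 14 (grey points, in order along the chromosome) with the running median over 25 genes (red line), for KO#1 over KO#2, KO#1 over KO#3 and KO#2 over KO#3. The 220 genes of the middle segment stood at a median of 1.03 over KO#2 and 0.15 over KO#3, and the 114 distal genes at 0.62 and 0.61.

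Elsewhere the medians of the autosomes and of the X chromosome lay between -0.03 and 0.06, and neighbouring genes that were low in KO#1 formed shorter stretches. A stretch is a run of windows of 25 tested genes whose median passed 0.4 in size, with the same sign, in every KO#1 comparison, so these places were picked for their values. On chromosome 4, 27 of 72 genes from Casp9 to Gm13136 (chr4:141793612-147738426) were lower, among them Pramef genes and Zfp9xx genes such as Zfp981 (-1.38 ± 0.06). On chromosome 7, 14 of 34 genes from Zfp667 to Zfp110 (chr7:6286579-12850577) were lower, which takes in Peg3, Usp29 and the Zscan4 cluster. On the X chromosome, 16 of 40 genes from 1110012L19Rik to Arhgap4 (chrX:70385877-73921870) were lower, which takes in the Xlr cluster. On chromosome 15, 12 of 30 genes from Atf1 to Soat2 (chr15:100227819-102163469) were lower, among them Krt7, Krt8 and Krt18. No gene of the stretches on chromosomes 4, 7 and X was called higher, and 1 was on chromosome 15. These stretches hold families with shared reads, so their genes are not independent. On the Y chromosome 3 of 8 tested genes were lower, beside 10.2% of all genes. Of 5 tested single-copy Y genes 1 was lower. Their summed level was 178 to 198 CPM in KO#1, 221 to 238 CPM in KO#2, 159 to 183 CPM in KO#3 and 169 to 190 CPM in WT#1, so KO#1 overlapped KO#3 and WT#1. Zfy1, a zinc finger gene, had 1 count in KO#1 (ratio to the other clones 0.0124, 0.000313 to 0.0703), with 0.619, 0.672 and 0.386 CPM in KO#2, 1.86, 1.84 and 1.91 CPM in KO#3 and 1.38, 2.11 and 2.08 CPM in WT#1.

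Set over the same 3 WT#1 libraries, each clone gave its own pattern. KO#1 had 610 genes higher (3.63%) and 1338 lower (7.97%), KO#2 had 770 higher (4.59%) and 1175 lower (7%), and KO#3 had 432 higher (2.57%) and 73 lower (0.435%). The count of 432 was 271 without 1 of the WT#1 libraries and 286 without KO#3 replicate 3. That of 73 was 39 without KO#3 replicate 2, 48 without KO#3 replicate 1, and 44 and 48 without either of 2 WT#1 libraries. Of 859 repeat subfamilies, 20 were higher in KO#1 (2.33%), 448 in KO#2 (52.2%) and 68 in KO#3 (7.92%). The count of 20 was 4 without KO#1 replicate 1, 98 without KO#1 replicate 2, 3 without KO#1 replicate 3, 13 without KO#2 replicate 2, 9 without KO#3 replicate 1, 10 without KO#3 replicate 3 and 3 without either of 2 WT#1 libraries. That of 68 was 19 without KO#3 replicate 1, 20 without KO#3 replicate 3, and 16 and 31 without either of 2 WT#1 libraries. The 2-cell-like list had a median of -0.34 in KO#1, 1.77 in KO#2 and 2.29 in KO#3, with 0 higher and 3 lower in KO#1, 21 higher in KO#2 and 20 higher in KO#3. Trophectoderm genes stood at -1.69 in KO#1 (10 of 16 lower), 0.03 in KO#2 (4 higher, 4 lower) and 0.51 in KO#3 (7 higher). Primitive endoderm genes stood at -0.76, 0.40 and 0.52 in KO#1, KO#2 and KO#3. The formative list was lower in KO#1 (-0.87, 10 of 20 called lower), with -0.23 in KO#2 and -0.18 in KO#3. The comparisons share their WT#1 libraries, so they are not independent of each other.

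**Figure D5:**
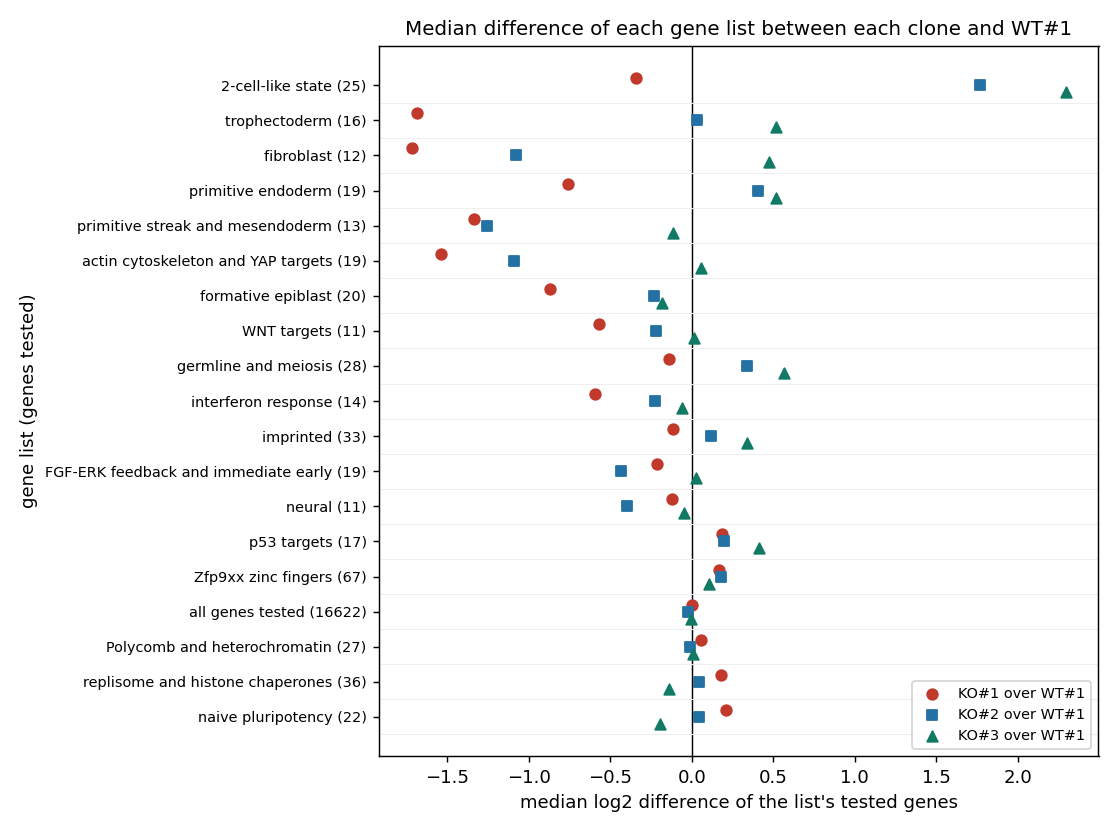
Median log2 difference over WT#1 of the tested genes of each fixed list (number tested in brackets), for KO#1 (circles), KO#2 (squares) and KO#3 (triangles). The 2-cell-like list stood at -0.34 in KO#1, 1.77 in KO#2 and 2.29 in KO#3, and the actin and YAP list at -1.54, -1.09 and 0.06.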

How the data were processed

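The authors deposited a table of raw counts (55335 gene rows and 1146 repeat subfamily rows) for the POLE4 experiment, made per the labels with Trimmomatic 0.39, STAR 2.7.1a on mm10 and featureCounts. Their tables of other experiments were not used here. The study's methods name GENCODE vM23. Symbols and positions came from vM21, which holds 55154 gene rows, and 181 are shown by identifier. Counts were used as deposited, without realignment.

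Features were kept with filterByExpr (min.count 10, min.total.count 15) and scaled by TMM factors from gene rows, which leaves repeats out of the scale. A gene near 0 in KO#1 could pass this filter only through KO#2 or KO#3, so it could hardly come out other than lower. The 9 knockout libraries were fitted with edgeR quasi-likelihood tests with line and replicate number as terms (4 residual degrees of freedom), and genes and repeats were adjusted separately (Benjamini-Hochberg, adjusted p below 0.01, absolute log2 difference above 0.58). The SE is the log2 difference divided by the square root of F. Fits over WT#1 used 12 libraries and no replicate term, because WT#1 columns carry other numbers. Replicate numbers were kept as a block because the study lists a shared experiment name for each number; residual correlations exceeded 0.1 in 9 of 9 same-number pairs (0.161 to 0.346) and in 0 of 18 others. Replicate libraries of a line differed by more than sampling noise. On simulated counts for KO#1 over KO#2 and KO#3 (17397 features run) the fit recovered 96% of 100 genes changed by 1 on the log2 scale and 100% of 100 changed by 2. The changed genes had means above 1 CPM and all genes shared a common dispersion of 0.00347, so the recovery does not cover genes near 0.

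The clone split, the members and the lists were chosen with earlier results of these data known. Named genes are the 15 with the largest change in each direction among those called in every KO#1 comparison, with a mean of at least 1 CPM in the higher group and no overlap, and the called members of each list. Some of them are not reported here. Alternatives were another test (DESeq2), other scaling factors, filters and limits, glmTreat, no block, and leaving out each library. The limits on chromosome 14, the fit without its genes, and the DESeq2 and leave-one-out fits over WT#1 were chosen after seeing the data. Versions: R 4.3.3, edgeR 4.0.16, limma 3.58.1, DESeq2 1.42.0, data.table version 1.17.8.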

Additional observations from a re-analysis of the deposited data

Results flagged for a closer look

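For 11 of the named genes KO#1 changed over WT#1 in one direction while KO#2 and KO#3 both changed in the other, each by a called amount. The same 3 WT#1 libraries served all 3 clones, and KO#1 over the other clones was called for each gene.

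Lower in KO#1 and higher in KO#2 and KO#3 than in WT#1 were 9 genes. The log2 difference over WT#1 of H19 was -0.95 in KO#1, 4.51 in KO#2 and 5.23 in KO#3. Xlr3a stood at -3.66 in KO#1, 2.12 in KO#2 and 2.81 in KO#3. Hand1 stood at -2.68 in KO#1, 0.75 in KO#2 and 2.20 in KO#3. Among the 2-cell-like genes, Usp17lb stood at -1.99 in KO#1, 1.77 in KO#2 and 2.41 in KO#3, Usp17le at -0.98, 2.33 and 2.60 in the same order of clones, and Trim43a at -3.32, 1.74 and 1.65. Gm13128 stood at -4.13 in KO#1, 1.04 in KO#2 and 1.25 in KO#3, and Gm49089 at -4.33, 3.93 and 1.99. Plac1 stood at -5.16 in KO#1, 1.88 in KO#2 and 2.14 in KO#3, where the KO#1 value is a fitted one for a gene with no count and is no bound.

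The other two genes were higher in KO#1 and lower in KO#2 and KO#3. Nkx6-3 stood at 3.15 in KO#1, -1.36 in KO#2 and -1.62 in KO#3, and Fgf17 at 1.52 in KO#1, -0.62 in KO#2 and -0.95 in KO#3.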

How the results depend on the processing

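The number of genes higher in KO#1 than the mean of the other clones was 642. It was 234 with glmTreat, which tests against the limit of 0.58 itself, and 291 when a call against KO#2 and against KO#3 was required. The number of genes lower, 1690, was 1078 with min.count 50, 848 with glmTreat and 902 against each clone singly. For repeats, 4 higher were 2 against each clone singly, and 51 lower were 81 without the filter, 88 at an adjusted p below 0.05, 17 with glmTreat and 25 against each clone singly. Leaving out 1 library gave 582 to 653 genes higher, 1351 to 1687 genes lower, 4 to 5 repeats higher and 31 to 68 repeats lower. Without the replicate block 2090 genes were called in place of 2332, 2087 of them shared. Without the block 594 genes were higher and 1496 lower, and with DESeq2 532 were higher and 1481 lower. Of 231 named features called, 16 lost the call without the block, 9 with DESeq2, 59 with glmTreat and 36 when any single library was left out. Those 36 include Cyp2b23, Duxf3, Tdpoz4 and Trim43b of the 2-cell-like list, Gata6, Hnf4a, Srgn and Bmp2 of the primitive endoderm list and Fgf8 and Mixl1 of the streak list. No named feature turned its direction under these settings. Genes near 0 in KO#1 are limited by depth, and their differences depend on the floor of 3 counts.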
